A study of Arabidopsis thaliana with 27 samples.

Results

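The mitochondrion-encoded genes of Arabidopsis thaliana are the rows whose identifiers start with ATMG, and the 75 whose mean over all samples reached 1 TPM are described here. TPM is a relative abundance, that is, reads corrected for the length of the gene and for the depth of the library. These 75 members were chosen from 146 ATMG rows among 33602 genes in all, and 71 ATMG rows had lower means, of which 2 were at 0 in every sample. Just inside the limit were ATMG00970, ATMG00490 and ATMG00960 with means of 1.10, 1.20 and 1.21 TPM, and just outside were ATMG00700, ATMG00930 and ATMG00400 with 0.977, 0.971 and 0.955 TPM. RNA came from shoots of wild-type Col-0 seedlings that had spent 1 week on complete medium (+Fe+P) under continuous light. The seedlings were then moved to medium with no added iron and low phosphate (−Fe−P), to medium with no added iron and full phosphate (−Fe+P) or to fresh +Fe+P, and were sampled 39, 52 and 76 h later. Phosphate in −Fe−P was lowered and not removed, so these plants still had a small supply. Each of the 9 groups held 3 biological replicates, which gave 27 libraries of poly(A)-selected RNA.

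Plant mitochondria keep a small genome that encodes some subunits of the respiratory chain complexes and of ATP synthase, parts of the cytochrome c maturation machinery, a few ribosomal proteins and the mitochondrial ribosomal RNAs. Most other mitochondrial proteins, among them most of the factors that transcribe, splice, edit and trim these transcripts, are encoded in the nucleus. Mature mitochondrial transcripts of plants mostly lack stable poly(A) tails, and short tails mark them for decay, so a poly(A)-selected library holds a selected portion of them. Iron enters the respiratory chain as heme and as iron-sulfur clusters.

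The deposited table gives identifiers only. A large stretch of mitochondrial sequence lies in the nuclear chromosome 2, and the annotation of the genes there allowed 17 members to be named by comparison with the RefSeq mitochondrial genome. These are 3 parts of complex I (nad1 exon 1A, part of nad2, and nad3), cob of complex III and cox3 of complex IV, 4 ATP synthase subunits (atp1, atp6-1, atp8 and atp9), 3 cytochrome c maturation genes (ccmC, ccmFC and ccmFN2) and 5 ribosomal protein genes (rpl2, rpl5, rps4, rps7 and rps12). A further 6 members are reading frames for which a note gives a similarity, 8 are cited in a note without a description, and 44 have no annotation in the sources used here. These 44 may include further genes of the same roles, so rankings and counts by role below cover named members only.

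The coding starts of 3 members are shown because results below turn on them and because each is found unaltered in the nuclear genome. They are RefSeq sequences of build TAIR10.1, written 5′ to 3′ with the start codon in capitals. The first 90 bases of nad3 (ATMG00990) lie at positions 288044 to 288133 of the mitochondrial genome, plus strand, and the same letters lie at chr2:3270008-3270097. Those of rps12 (ATMG00980) lie at 288446 to 288535, plus strand, and again at chr2:3270410-3270499. Those of atp9 (ATMG01080) lie at 271096 to 271185, minus strand, and again at chr2:3251991-3252080.
nad3: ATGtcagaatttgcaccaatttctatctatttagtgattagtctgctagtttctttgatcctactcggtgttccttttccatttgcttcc
rps12: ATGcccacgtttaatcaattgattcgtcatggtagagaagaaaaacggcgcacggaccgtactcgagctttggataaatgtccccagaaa
atp9: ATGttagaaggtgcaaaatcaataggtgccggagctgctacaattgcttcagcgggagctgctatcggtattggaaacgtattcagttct
The full coding sequences of nad3 (357 bases) and rps12 (378 bases) follow each other on the same strand with 45 bases between them, and the whole of each, like that of atp9 (225 bases), has 1 identical copy on chromosome 2. The mitochondrial sequence of the authors' build may differ from this one, so the positions are those of the RefSeq build.

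Depth inferred from the steps between TPM values was 25574164 to 56503321 reads per sample, and the members had median counts of 3 to 33587 reads with a median of 74. For 6 members the median was under 10 reads, so their values carry large counting error. The labelled tissue was checked by markers, and 4 shoot marker genes summed to at least 33659 TPM in every library, while 6 root markers summed to at most 678 TPM. Fewer cells of a type and less RNA per cell cannot be told apart in such bulk samples.

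Levels differed widely between members. The mean over all samples was under 2 TPM for 11 members, 2 to 5 TPM for 33, 5 to 10 TPM for 12, 10 to 100 TPM for 15 and over 100 TPM for 4. Member means added up to 1677 TPM, of which ATMG01390, with no annotation here, made up 37.3% and the 3 highest members 56.9%. These were ATMG01390 (626 TPM), ATMG00020 (187 TPM) and ATMG00030 (140 TPM), all without annotation in the sources used here, so their products were not identified. Next came rps12, which codes for a protein of the small ribosomal subunit, with a mean of 125 TPM. Among the other named members, nad3 had 43.3 TPM, atp9 15.01 TPM, atp1 10.4 TPM and atp8 9.72 TPM, and the remaining 12 had means of 1.21 to 4.66 TPM.

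The summed level of the members was higher without iron than with it at 39 and 76 h. At 39 h the sums were 4970, 1943 and 1509 TPM on −Fe−P, 1746, 1709 and 1532 TPM on −Fe+P, and 1334, 1116 and 1364 TPM on +Fe+P. At 52 h they were 1821, 1457 and 2371 TPM on −Fe−P, 1567, 1695 and 1446 TPM on −Fe+P, and 1370, 1640 and 1320 TPM on +Fe+P. At 76 h they were 1552, 2193 and 1509 TPM on −Fe−P, 1778, 1657 and 1496 TPM on −Fe+P, and 973, 1092 and 1113 TPM on +Fe+P. All samples of both iron-free media lay above all +Fe+P samples at 39 and 76 h, whereas the groups overlapped at 52 h. The 2 iron-free media overlapped each other at each time. Without ATMG01390 and ATMG00020, the 2 highest members, the 76 h sums were 819, 1126 and 846 TPM on −Fe−P. They were 965, 995 and 886 TPM on −Fe+P, and 535, 583 and 631 TPM on +Fe+P. Other measures differed between media as well. Shoot markers summed to 34956 to 36392 TPM over both iron-free media, against 37875 to 40063 TPM on +Fe+P, at 39 h, and to 33659 to 40912 TPM against 49086 to 50678.5 TPM at 76 h, and they did not overlap at 52 h either. Plastid-encoded genes at 76 h summed to 90768 to 118166 TPM on −Fe+P, above the 78481 to 86321 TPM on +Fe+P, while the 84675 to 125796 TPM on −Fe−P overlapped with these. Seed storage genes at 76 h summed to 4.26 to 4.63 TPM on −Fe+P and to 0.266 to 0.824 TPM on +Fe+P. On −Fe−P they summed to 0.496 to 1.04 TPM, which overlapped +Fe+P at this time. Both iron-free media lay above +Fe+P for these genes at the earlier times. Sums at 39 h were 0.883 to 62.0 TPM on −Fe−P, 1.54 to 2.37 TPM on −Fe+P and 0.0995 to 0.298 TPM on +Fe+P. Sums at 52 h were 1.09 to 2.60 TPM on −Fe−P, 4.04 to 7.10 TPM on −Fe+P and 0.0288 to 0.264 TPM on +Fe+P. The part of these shifts in the member values was not tested. The group with the lowest mean was +Fe+P at 76 h for 46 of the 75 members, and the highest single sample was −Fe−P 39 h replicate 1 for 37 members and −Fe−P 76 h replicate 2 for 21.

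**Figure D1:**
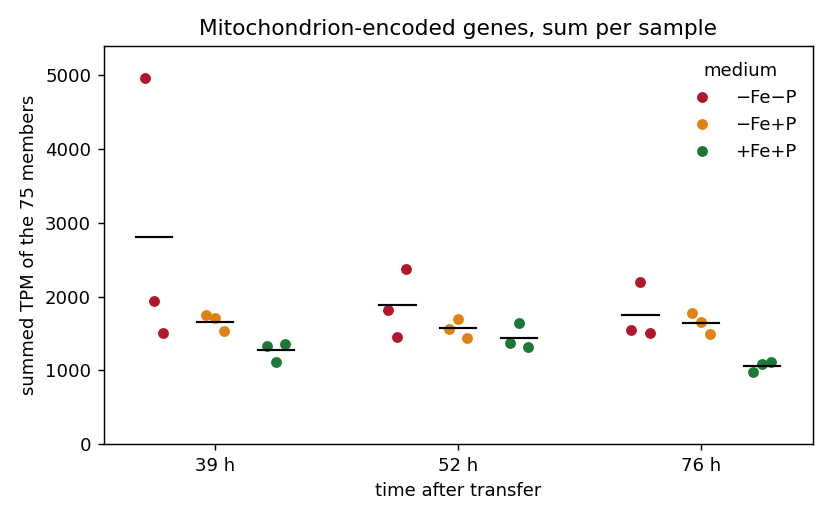
Summed TPM of the 75 mitochondrion-encoded members (vertical axis) in each of the 27 samples, by time after transfer (horizontal axis) and medium, with 1 point per sample and a line at each group mean of 3 samples. The −Fe−P 39 h replicate 1 stands at 4970 TPM, and at 76 h the +Fe+P samples, at 973 to 1113 TPM, lie below all others.

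A single library, −Fe−P 39 h replicate 1, stood apart. In it 21 of the 75 members (28%) were at least 2-fold above the median of the 2 other samples of their group, and 57 were above both, whereas 1.58% of all tested genes were that far above. The farthest was ATMG01120, with no annotation, at 37.2 TPM (314 reads) in that library and 9.29 and 4.87 TPM in replicates 2 and 3. ATMG01130 had 33.7 TPM there and 7.51 and 6.90 TPM in its mates, and ccmC (ATMG00900), a cytochrome c maturation gene, had 6.75 TPM and 2.41 and 1.60 TPM in its mates.

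Of 44 members without annotation, 16 were at least 2-fold above their mates in this library. Among named members, so were 1 of 3 of complex I (nad3), 0 of 2 of complexes III and IV and 0 of 4 ATP synthase subunits. So were 1 of 3 named cytochrome c maturation genes (ccmC) and 1 of 5 named ribosomal protein genes (rps12). It was 0 of 6 described reading frames and 2 of 8 cited members. The 44 may include further genes of these roles, so the counts may not cover a whole role. A difference between roles was not tested. For atp1, the alpha subunit of ATP synthase, the library held 12.0 TPM and its mates 16.1 and 9.16 TPM, and for atp9, a subunit of the membrane ring, it held 10.2 TPM and its mates 10.7 and 11.6 TPM. For atp8 it held 10.8 TPM and its mates 7.90 and 6.31 TPM, so that atp1 lay between its mates, atp9 below both and atp8 above both. Outside the members, 23 of 133 plastid-encoded genes (17.3%), 17 of 58 chromosome 2 genes of mitochondrial sequence (29.3%) and 1.36% of nuclear genes were at least 2-fold above in this library.

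Other measures moved in the same library. Plastid-encoded genes summed to 141203 TPM in it and to 108900 and 97137 TPM in its mates. Of 8 seed storage genes, 6 were at least 2-fold above the median of their mates, with summed levels of 62.0 TPM against 1.06 and 0.883 TPM, while 6 xylem genes summed to 16.8 TPM against 85.4 and 93.8 TPM. Shoot markers summed to 36109 TPM there and to 35954 and 34956 TPM in its mates, and root markers to 484 TPM against 599 and 631 TPM. Nuclear 18S ribosomal RNA (AT2G01010) was at 8984 TPM there and at 14871 and 8000 TPM in its mates. The part of any of these in the mitochondrial values was not tested.

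A pair of other libraries had smaller sets of raised members. In +Fe+P 52 h replicate 2, 12 members were at least 2-fold above the median of their mates, led by ATMG00280, a reading frame similar to the large chain of Rubisco, at 73.6 TPM against 19.2 and 34.2 TPM. In −Fe−P 76 h replicate 2, 8 members were, again led by ATMG00280, at 86.2 TPM against 23.7 and 17.5 TPM. These 2 libraries had 3 raised members in common (25% of the first set and 37.5% of the second), and the 39 h library shared 1 with the first and 2 with the second. Nuclear 18S ribosomal RNA was at 23074 TPM in +Fe+P 52 h replicate 2, the highest of all 27 samples, and at 4713 and 7173 TPM in its mates, and it was at 10977 TPM in −Fe−P 76 h replicate 2 and 5704 and 4738 TPM in its mates. Plastid-encoded genes summed to 114562 TPM in +Fe+P 52 h replicate 2 and to 95637 and 87977 TPM in its mates. They summed to 125796 TPM in −Fe−P 76 h replicate 2 and to 103549 and 84675 TPM in its mates. The part of either measure in the mitochondrial values was not tested.

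**Figure D2:**
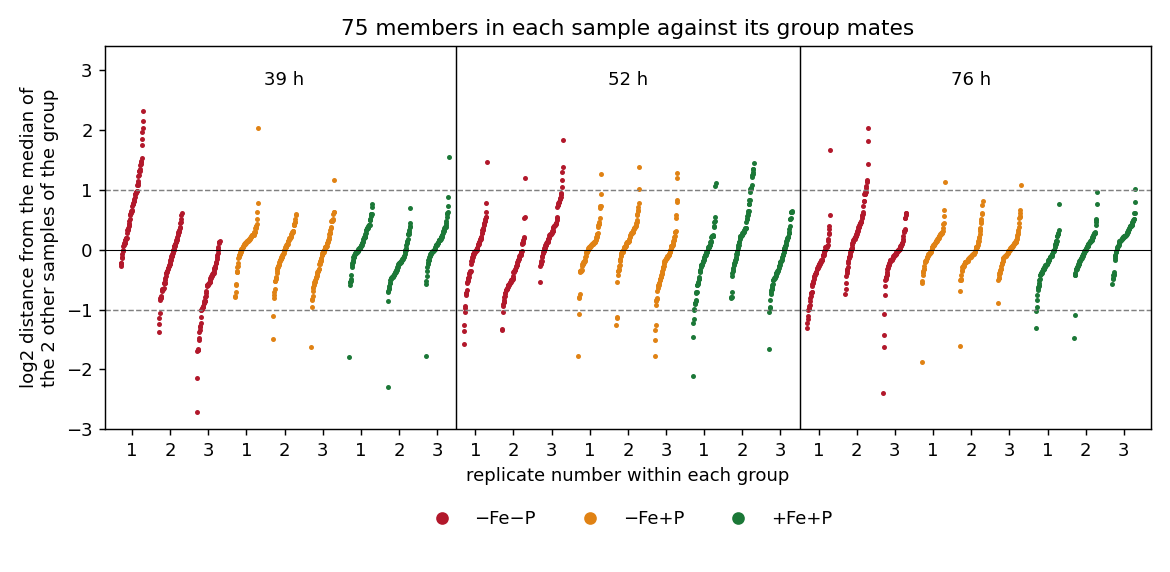
Log2 distance of each of the 75 members from the median of the 2 other samples of its group (vertical axis) in each of the 27 samples (horizontal axis, replicate numbers within each group), with 1 point per member and dashed lines at 2-fold. In −Fe−P 39 h replicate 1, 21 members lie above the upper line, in +Fe+P 52 h replicate 2 it is 12, and in −Fe−P 76 h replicate 2 it is 8.

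Differences between media were tested with limma on log2(TPM + 0.5) over all 18910 genes whose mean reached 1 TPM. A member was called when its Benjamini-Hochberg adjusted p was under 0.05 and its change at least 2-fold. At 76 h −Fe+P had higher levels of many members than +Fe+P. Of the 75 members, 6 were called higher and 0 lower, against 4.42% of all genes called higher, and 30 passed the adjusted p with a higher level (29.5% of all genes). Every −Fe+P sample was above every +Fe+P sample for 49 members, against 42.5% of all genes. The median log2 fold change was 0.59 over the members and 0.11 over all genes, and 72 members had a positive one. Without +Fe+P 76 h replicate 1 there were 3 calls, and without +Fe+P 76 h replicate 3 there were 9. Of the 30 members past the adjusted p, 12 also passed in each of the 6 fits without 1 of the samples, and the number past it in those fits was 17 to 29.

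At 39 and 52 h no member was called in −Fe+P by limma. At 39 h 0.555% of all genes were called higher, 7 members had an unadjusted p under 0.05 and ATMG00660 passed the adjusted p, which 3.43% of all genes did. The samples separated upward for 22 members (21.5% of all genes), and the median log2 fold change was 0.31 over the members and 0.05 over all genes. At 52 h 2.78% of all genes were called higher and 0.687% lower, 3 members had an unadjusted p under 0.05, none passed the adjusted p (28.5% of all genes) and 10 separated upward (38.8% of all genes) and 0 downward (5.3%). The medians at 52 h were 0.18 over the members and 0.16 over all genes. A test of the change in response between 39 and 76 h called 0 members (2.06% of all genes called higher) and 4 had an unadjusted p under 0.05, so the −Fe+P response was not shown to differ between these times.

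In −Fe−P against +Fe+P, 11 members were called higher at 39 h, 0 at 52 h and 3 at 76 h, and none was called lower. The shares of all genes called higher were 1.45%, 4.45% and 6.34% at these times, and 0.55%, 0.793% and 2.6% were called lower. By adjusted p alone 20, 0 and 26 members were higher, against 10.8%, 28.8% and 33.7% of all genes. Samples separated upward for 30 members at 39 h (22.4% of all genes), 9 at 52 h (34.4%) and 39 at 76 h (39.4%), and downward for 2 at 39 h (11.9%). Median log2 fold changes over the members were 0.44, 0.25 and 0.52, and over all genes 0.04, 0.11 and 0.10. At 52 h, where limma called none, 7 members had an unadjusted p under 0.05.

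The 39 h calls in −Fe−P rested on replicate 1. Without that library 0 of the 11 calls held, and 7 members passed the adjusted p in place of 20. Some called members then still passed the adjusted p under 2-fold, such as ATMG00640 and ATMG00080 (limma adjusted p = 0.0190 and 0.0248). Without −Fe−P 39 h replicate 3, 19 members were called. Without +Fe+P 39 h replicate 2, 5 were called and 7 passed the adjusted p, as many as without −Fe−P 39 h replicate 1. Of the 20 members past the adjusted p, 6 were past it in each of the 6 fits without 1 of the samples. At 76 h the 3 calls became 10 without −Fe−P 76 h replicate 1, 7 without +Fe+P 76 h replicate 3 and 2 without +Fe+P 76 h replicate 1 or 2, and 8 of the 26 members past the adjusted p were past it in each of the 6 fits without 1 of the samples. Without −Fe−P 76 h replicate 2, which has 8 raised members, 13 members passed the adjusted p.

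**Figure D3:**
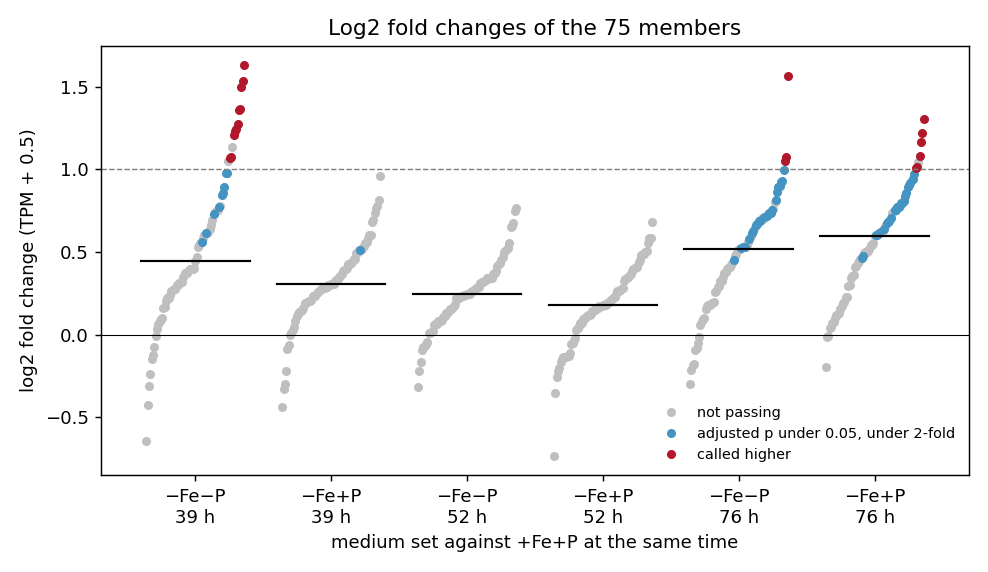
Log2 fold change of each of the 75 members in −Fe−P and in −Fe+P (horizontal axis, by time), each against +Fe+P at the same time, on the log2(TPM + 0.5) scale (vertical axis), with 1 point per member, a black line at the median and a dashed line at 2-fold. Called members are red, with 11, 0 and 3 of them for −Fe−P from the earliest to the latest time, against 0, 0 and 6 for −Fe+P, and the medians are above 0 in all 6 comparisons.

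Among the 3 named complex I members, nad3, which codes for a membrane subunit of NADH dehydrogenase, had the highest level. At 39 h nad3 held 103, 40.1 and 35.8 TPM on −Fe−P, 35.6, 30.5 and 40.2 TPM on −Fe+P, and 35.7, 27.8 and 29.0 TPM on +Fe+P. At 52 h nad3 held 32.1, 42.4 and 64.9 TPM on −Fe−P, 55.2, 46.6 and 36.2 TPM on −Fe+P, and 34.9, 37.1 and 22.5 TPM on +Fe+P. At 76 h nad3 held 52.7, 33.6 and 46.4 TPM on −Fe−P, 58.6, 94.0 and 53.5 TPM on −Fe+P, and 26.6, 24.4 and 29.1 TPM on +Fe+P. All iron-free samples were above all +Fe+P samples at 76 h, and −Fe−P was below −Fe+P in every sample at that time. The −Fe+P rise at 76 h had a log2 fold change of 1.31 (standard error 0.31, limma adjusted p = 0.00198) and was called in each of the 6 fits without 1 of the samples. For −Fe−P at 76 h nad3 had 0.70 (standard error 0.31, adjusted p = 0.0614), and the difference of −Fe−P from −Fe+P, −0.61, had an adjusted p of 0.108. The other 2 complex I members, nad1 exon 1A and part of nad2, passed the adjusted p in −Fe+P at 76 h under 2-fold (29.5% of all genes were higher by adjusted p), and the 3 ranged from 0.64 to 1.31. Each of these 2 passed in 1 of the 6 fits without 1 of the samples, with adjusted p up to 0.101 and 0.118. In −Fe−P at 76 h the 3 ranged from 0.17 to 0.70 and 0 passed.

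In complexes III and IV, cob codes for cytochrome b, which binds heme. At 39 h cob held 5.06, 6.08 and 4.07 TPM on −Fe−P, 4.96, 4.89 and 2.97 TPM on −Fe+P, and 3.91, 2.09 and 3.19 TPM on +Fe+P. At 52 h cob held 4.72, 2.36 and 3.77 TPM on −Fe−P, 3.34, 4.61 and 4.16 TPM on −Fe+P, and 2.23, 6.43 and 2.73 TPM on +Fe+P. At 76 h cob held 2.57, 6.05 and 3.12 TPM on −Fe−P, 4.99, 3.88 and 5.04 TPM on −Fe+P, and 2.32, 2.12 and 2.87 TPM on +Fe+P. The −Fe+P samples lay above the +Fe+P samples at 76 h, with a log2 fold change of 0.81 (standard error 0.31, limma adjusted p = 0.0416). That adjusted p was under 0.05 in 1 of the 6 fits without 1 of the samples and 0.121 at most. The other named member, cox3, a core subunit of cytochrome c oxidase, did not pass in any comparison of −Fe+P or −Fe−P with +Fe+P.

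Of the 4 named ATP synthase subunits, atp9 had the highest level. At 39 h atp9 held 10.2, 10.7 and 11.6 TPM on −Fe−P, 15.4, 14.1 and 15.3 TPM on −Fe+P, and 12.3, 9.73 and 10.7 TPM on +Fe+P. At 52 h atp9 held 17.1, 14.4 and 13.8 TPM on −Fe−P, 13.9, 19.9 and 15.7 TPM on −Fe+P, and 9.43, 14.4 and 13.4 TPM on +Fe+P. At 76 h atp9 held 13.6, 32.6 and 19.7 TPM on −Fe−P, 23.3, 17.4 and 16.7 TPM on −Fe+P, and 9.91, 15.1 and 15.2 TPM on +Fe+P. The −Fe+P samples were above the +Fe+P samples at 39 and 76 h, but neither difference passed (limma adjusted p = 0.270 and 0.0739). In −Fe−P at 76 h atp9 had a log2 fold change of 0.63 (standard error 0.22, adjusted p = 0.0197), although its samples overlapped those of +Fe+P, and without replicate 2 the adjusted p was 0.205. Of the 4 ATP synthase members, at 76 h 2 passed the adjusted p for −Fe+P, while 3 did for −Fe−P, all higher and under 2-fold, against 29.5% and 33.7% of all genes, and 0 passed at 39 or 52 h.

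Cytochrome c maturation genes code for the machinery that attaches heme to apocytochrome c, and ccmFC (ATMG00180) had the highest level of the 3 named ones. At 39 h ccmFC held 4.33, 3.75 and 2.84 TPM on −Fe−P, 3.99, 3.03 and 3.68 TPM on −Fe+P, and 2.94, 2.71 and 2.82 TPM on +Fe+P. At 52 h ccmFC held 4.20, 4.11 and 4.30 TPM on −Fe−P, 4.16, 4.48 and 3.02 TPM on −Fe+P, and 3.23, 3.32 and 3.66 TPM on +Fe+P. At 76 h ccmFC held 4.67, 5.70 and 5.38 TPM on −Fe−P, 5.10, 4.38 and 5.02 TPM on −Fe+P, and 3.34, 3.28 and 4.58 TPM on +Fe+P. The −Fe−P samples were above the +Fe+P samples at 52 and 76 h. At 76 h ccmFC was higher in −Fe−P by 0.45 on the log2 scale (standard error 0.14, limma adjusted p = 0.00855), and it passed in each of the 6 fits without 1 of the samples, at 0.0489 at most. The ccmC call at 39 h in −Fe−P (log2 fold change 1.248, adjusted p = 0.0111) gave 0.0744 without −Fe−P 39 h replicate 1.

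All 5 named ribosomal protein genes passed the adjusted p at a higher level in −Fe+P at 76 h (29.5% of all genes), with log2 fold changes of 0.67 to 1.22, and 1 of them, rps12, was called at 2-fold. In −Fe−P at 76 h 3 of 5 passed (33.7% of all genes) and 0 were called. At 39 h rps12 held 474, 125 and 118 TPM on −Fe−P, 139, 95.4 and 131 TPM on −Fe+P, and 87.0, 65.7 and 85.5 TPM on +Fe+P. At 52 h rps12 held 117, 136 and 172 TPM on −Fe−P, 127, 103 and 121 TPM on −Fe+P, and 91.5, 87.7 and 68.9 TPM on +Fe+P. At 76 h rps12 held 131, 122 and 127 TPM on −Fe−P, 138, 197 and 120.2 TPM on −Fe+P, and 58.7, 62.0 and 69.5 TPM on +Fe+P. Every iron-free sample was above every +Fe+P sample at all 3 times. The −Fe+P rise at 76 h had a log2 fold change of 1.22 (standard error 0.32, limma adjusted p = 0.00473) and was called in each of the 6 fits without 1 of the samples. In −Fe−P rps12 had 1.27 at 39 h (adjusted p = 0.00913), 0.77 at 52 h (adjusted p = 0.0631) and 0.996 at 76 h (adjusted p = 0.0124), the last just under 2-fold. The 39 h value was 0.62 (adjusted p = 0.0292) without −Fe−P 39 h replicate 1.

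Of the 6 reading frames with a noted similarity, ATMG00370, whose note names Ycf1, had the highest level, and at 39 h it held 147, 116 and 109 TPM on −Fe−P, 107, 108 and 85.2 TPM on −Fe+P, and 104, 109 and 103 TPM on +Fe+P. At 52 h ATMG00370 held 96.2, 93.0 and 103 TPM on −Fe−P, 106, 79.6 and 96.7 TPM on −Fe+P, and 87.8, 98.6 and 80.8 TPM on +Fe+P. At 76 h ATMG00370 held 75.4, 62.9 and 63.3 TPM on −Fe−P, 74.4, 76.8 and 74.1 TPM on −Fe+P, and 86.5, 68.8 and 73.4 TPM on +Fe+P. No medium differed from +Fe+P for it by the adjusted p at any time. In −Fe−P its level at 52 h was below that at 39 h by −0.34 on the log2 scale (limma adjusted p = 0.0315, 19.7% of all genes lower). Its level at 76 h was below that at 52 h by −0.54 (adjusted p = 0.00220, 14.2% of all genes lower), and neither pair of times overlapped. The values above also fell without overlap in +Fe+P from 39 to 52 h and in −Fe+P from 52 to 76 h, but neither fall passed. Of the 6 frames 1 passed against +Fe+P in −Fe+P at 76 h (29.5% of all genes) and 0 in −Fe−P (33.7%).

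ATMG01330 had the highest level of the 8 members cited without a description. At 39 h it held 9.85, 5.69 and 5.11 TPM on −Fe−P, 5.96, 4.57 and 6.99 TPM on −Fe+P, and 5.27, 3.99 and 5.89 TPM on +Fe+P. At 52 h ATMG01330 held 6.13, 5.49 and 7.06 TPM on −Fe−P, 5.52, 6.11 and 4.55 TPM on −Fe+P, and 5.78, 5.36 and 6.40 TPM on +Fe+P. At 76 h ATMG01330 held 5.03, 7.04 and 5.36 TPM on −Fe−P, 5.91, 5.74 and 6.43 TPM on −Fe+P, and 4.54, 5.56 and 6.03 TPM on +Fe+P. The media overlapped at each time and no difference passed. Of the 8 members, 1 passed the adjusted p in −Fe+P at 76 h and 1 in −Fe−P at each of 39 and 76 h, against 29.5%, 10.8% and 33.7% of all genes.

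ATMG01390, the member with the highest level and with no annotation in the sources used here, made up 26.4 to 54.6% of the summed level of a sample. At 39 h ATMG01390 held 2716, 785 and 549.5 TPM on −Fe−P, 617, 565 and 567 TPM on −Fe+P, and 446, 416 and 513 TPM on +Fe+P. At 52 h ATMG01390 held 697, 543 and 1041 TPM on −Fe−P, 532, 571 and 472 TPM on −Fe+P, and 603, 461 and 573 TPM on +Fe+P. At 76 h ATMG01390 held 529.7, 746 and 478 TPM on −Fe−P, 575, 455 and 395 TPM on −Fe+P, and 349, 373 and 335 TPM on +Fe+P. The iron-free samples were above the +Fe+P samples at 39 and 76 h and overlapped them at 52 h. Only the 39 h difference in −Fe−P passed, at 1.21 on the log2 scale (standard error 0.35, limma adjusted p = 0.0202), and it was 0.52 (adjusted p = 0.105) without −Fe−P 39 h replicate 1.

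**Figure D4:**
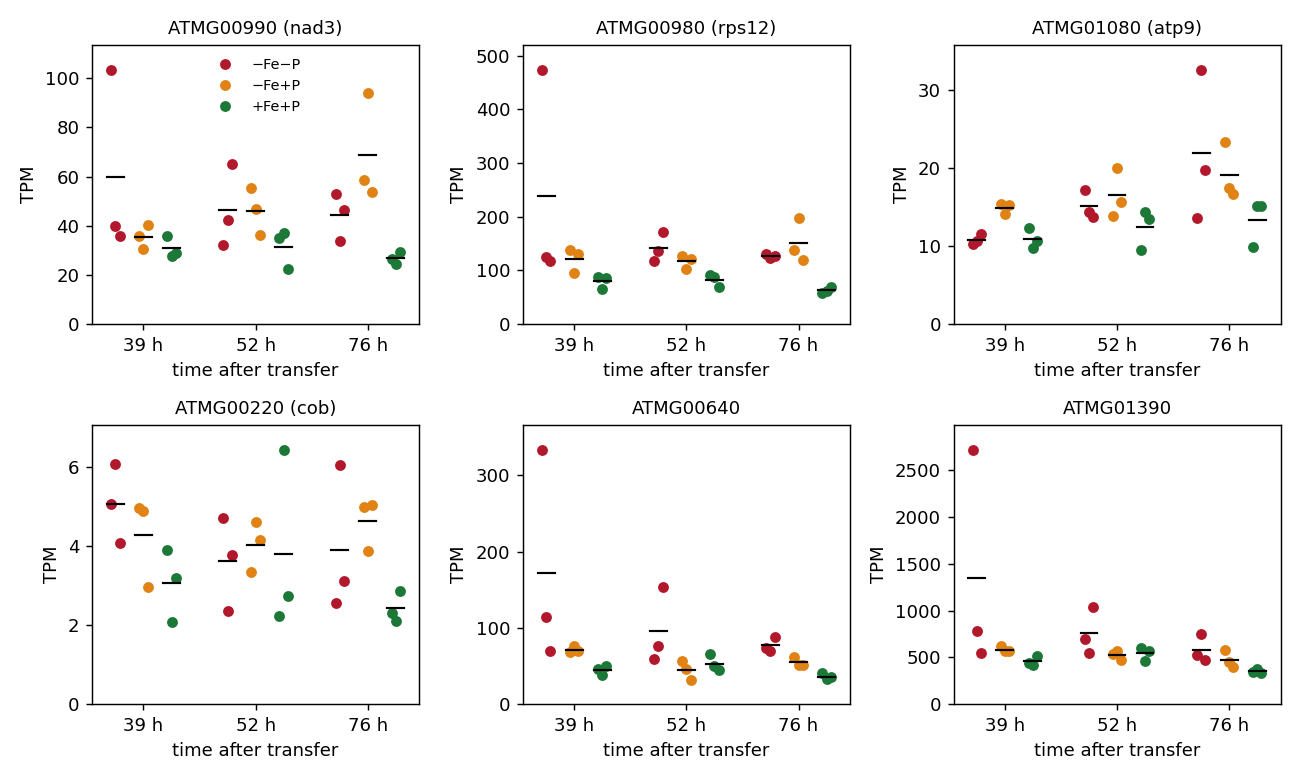
TPM of 6 members (vertical axes, 1 panel each) in the 27 samples by time after transfer (horizontal axis) and medium, with 1 point per sample and a line at each group mean of 3 samples. At 76 h nad3 and rps12 in −Fe+P lie above all +Fe+P samples, and −Fe−P 39 h replicate 1 stands at 474 TPM for rps12, 333 TPM for ATMG00640 and 2716 TPM for ATMG01390 but at 10.2 TPM for atp9.

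The largest calls among the other unannotated members were as follows. ATMG00640 had the largest change in −Fe−P at 39 h, with 333, 114 and 69.2 TPM in −Fe−P and 45.9, 38.1 and 49.9 TPM in +Fe+P, which did not overlap (log2 fold change 1.63, standard error 0.37, limma adjusted p = 0.00355). Without −Fe−P 39 h replicate 1 it was 0.997 (adjusted p = 0.0190), just under 2-fold. At 76 h ATMG00640 was called again in −Fe−P, with 74.2, 69.5 and 87.8 TPM against 40.8, 32.4 and 35.7 TPM in +Fe+P (log2 fold change 1.07, adjusted p = 0.0162). ATMG00640 kept this 76 h call in 4 of the 6 fits without 1 of the samples, with adjusted p up to 0.0554. It was also called in −Fe−P against −Fe+P at 52 h, with 59.9, 76.2 and 153 TPM in −Fe−P and 57.0, 46.7 and 32.1 TPM in −Fe+P (1.003, adjusted p = 0.0455). Its −Fe−P samples were above the samples of the other medium in all 3 of these comparisons.

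The next largest in −Fe−P at 39 h were ATMG01120 and ATMG01130. ATMG01120 had 37.2, 9.29 and 4.87 TPM in −Fe−P and 4.24, 3.55 and 3.72 TPM in +Fe+P (log2 fold change 1.54, limma adjusted p = 0.0203). ATMG01130 had 33.7, 7.51 and 6.90 TPM in −Fe−P and 3.24, 3.50 and 5.52 TPM in +Fe+P (1.498, adjusted p = 0.00765). The groups did not overlap for either, and replicate 1 was the highest for both. ATMG00510 had 40.0, 13.9 and 9.35 TPM in −Fe−P and 6.54, 5.14 and 7.89 TPM in +Fe+P (1.37, adjusted p = 0.0188), and ATMG00390 had 15.2, 6.36 and 5.34 TPM in −Fe−P and 2.44, 3.39 and 2.77 TPM in +Fe+P (1.36, adjusted p = 0.0392). The 11 calls at 39 h also held ATMG00490, ATMG00080 and ATMG00500, with 1.07 to 1.23.

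In −Fe+P at 76 h, the other 4 calls were of low members without annotation. ATMG01000 had 6.84, 10.3 and 4.37 TPM in −Fe+P and 2.73, 2.21 and 3.40 TPM in +Fe+P (log2 fold change 1.16, limma adjusted p = 0.00276). ATMG01350 had 3.24, 2.86 and 3.50 TPM in −Fe+P and 0.978, 1.04 and 1.81 TPM in +Fe+P (1.08, adjusted p = 0.00427). ATMG00270 had 3.72, 2.31 and 2.04 TPM in −Fe+P and 1.11, 1.09 and 0.924 TPM in +Fe+P (1.02, adjusted p = 0.0323). None of these groups overlapped, but ATMG00270 was called in 1 of the 6 fits without 1 of the samples, with adjusted p up to 0.136. The last, ATMG00513, had a log2 fold change of 1.01 and was called in 3 of these 6 fits.

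In −Fe−P at 76 h, ATMG00665 had 10.8, 10.5 and 10.4 TPM in −Fe−P and 5.19, 1.39 and 4.33 TPM in +Fe+P (log2 fold change 1.57, limma adjusted p = 0.0239), on a median of 6 reads per sample. ATMG00665 was called in 4 of the 6 fits without 1 of the samples, with adjusted p up to 0.150. ATMG00030 had 139.6, 295 and 128 TPM in −Fe−P and 63.4, 91.8 and 102 TPM in +Fe+P (1.05, adjusted p = 0.0168), and it gave 0.133 without −Fe−P 76 h replicate 2. The groups did not overlap for either member.

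The 2 iron-free media differed little from each other. In −Fe−P against −Fe+P, limma called 0 members at 39 h, where 0.746% of all genes were called higher and 0.074% lower and 13 members had an unadjusted p under 0.05. At 52 h 2 were called higher (1.21% of all genes), ATMG00640 and ATMG00390, and 0 lower (0.994%), and these were also the 2 members past the adjusted p alone (9.77% of all genes higher). At 76 h 0 were called, against 4% of all genes higher and 4.87% lower, and 6 members had an unadjusted p under 0.05. By adjusted p alone, 2 members were higher (22.5% of all genes) and 3 lower (28.8%) at 76 h. ATMG00170 and ATMG00620, which held nearly equal values in every sample, were the 2 higher, and rpl2 (ATMG00560), ATMG01020 and ATMG01090 the 3 lower. Whether the 2 higher members are separate signals was not tested.

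ATMG00390 had 2.55, 7.25 and 9.80 TPM in −Fe−P and 4.61, 2.57 and 0.701 TPM in −Fe+P at 52 h, with overlap (log2 fold change 1.23, limma adjusted p = 0.0424). Each of the 2 calls at 52 h held in 2 of the 6 fits without 1 of the samples. Both were lost without replicate 2 or replicate 3 of either medium, with limma adjusted p up to 0.302 for ATMG00390 and 0.293 for ATMG00640. The median log2 fold change over the members was 0.18, 0.04 and −0.09 at 39, 52 and 76 h, and samples separated upward for 2, 4 and 3 members (8.95%, 13% and 27.5% of all genes) and downward for 2, 0 and 7 (8.46%, 23.8% and 32.5%).

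Within a medium few members were called between times. In +Fe+P, 1 member was called lower at 52 h than at 39 h (0.238% of all genes), ATMG00250, with 0, 2.14 and 1.16 TPM at 52 h and 4.30, 3.80 and 2.66 TPM at 39 h (log2 fold change −1.63, limma adjusted p = 0.0192), on a median of 5 reads per sample. In −Fe−P, 2 were called lower at 52 h than at 39 h (0.185% of all genes), ATMG01120 at −1.23 and ATMG01130 at −1.08, and both overlapped between the times. ATMG01120 had 3.43, 4.41 and 7.52 TPM at 52 h, and ATMG01130 had 4.23, 4.95 and 7.84 TPM. Without −Fe−P 39 h replicate 1 the changes were −0.43 and −0.36 and neither passed. In the other 4 time comparisons limma called 0 members, with 6 at an unadjusted p under 0.05 in +Fe+P from 52 to 76 h, 1 and 6 in −Fe+P over the 2 intervals and 8 in −Fe−P from 52 to 76 h. In the same order, 0.0106%, 2.45%, 0.74% and 1.54% of all genes were called higher, and 0%, 0.143%, 0.164% and 0.455% lower. In that last comparison ATMG00110 (0.76) and ATMG00670 (0.57) were higher at 76 h by adjusted p alone, against 9.48% of all genes, and ATMG00370, ATMG00530 (−0.55) and ATMG00660 (−0.42) were lower, against 14.2%.

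Reads of a member also match its copy on chromosome 2. All 17 named members have a copy in the table, 99.825 to 100% identical and 11 of them with no difference, and for 10 of the 17 the median ratio of the member's TPM to that of its copy was between 0.8 and 1.25. For rps12 the ratio to AT2G07675 was 0.995 to 1.01 over the 27 samples, and the copy had 475 TPM in −Fe−P 39 h replicate 1 and 125 and 117 TPM in its mates, as the member did. For nad3 the ratio to AT2G07751 was 0.384 to 0.650, with means of 43.3 and 74.4 TPM, and for atp8 the ratio to AT2G07707 was 1 to 1.14. By contrast ccmFC had 3.89 to 16.2 times the level of AT2G07815. Members without a name have copies as well, such as ATMG00370 (100% identical) and ATMG01330 (99.743%). Treatment of reads that match more than 1 place is not given in the sources used here, so mitochondrial and nuclear origin cannot be told apart for members with a copy, named or not. Their levels are uncertain to that extent. For members that no note cites, copies were not matched, so the same limit may hold.

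**Figure D5:**
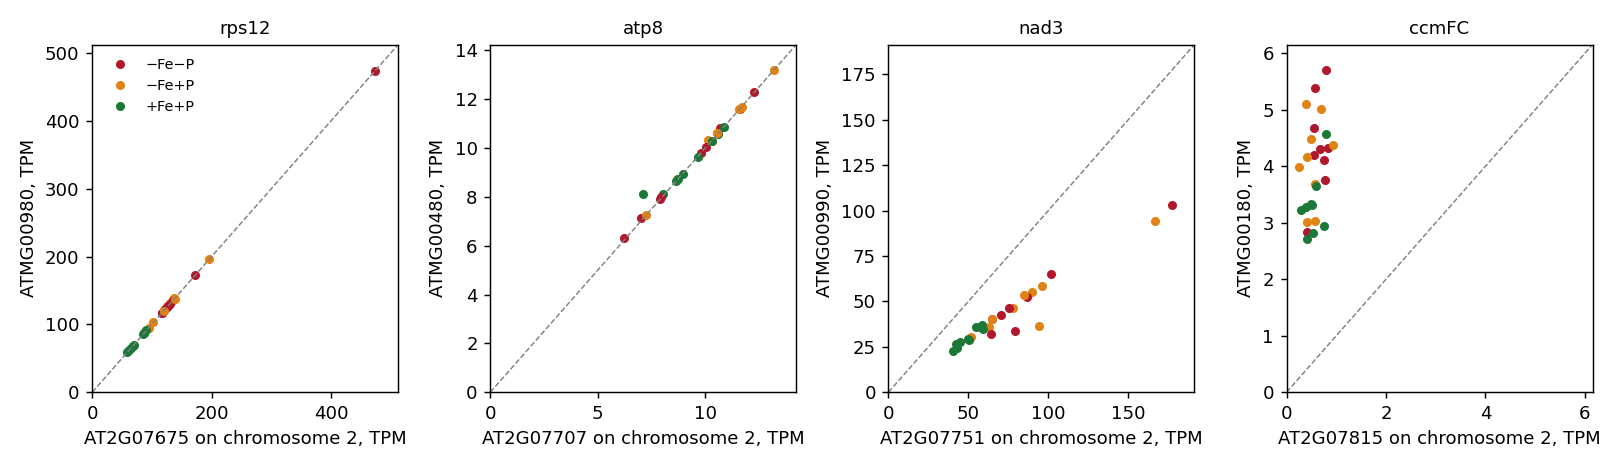
TPM of 4 named members (vertical axes) against the TPM of their copies on chromosome 2 (horizontal axes), with 1 point per sample, colours by medium and a dashed line at equal levels. Points for rps12 and atp8 lie on or near the line, those for nad3 lie below it and those for ccmFC above it.

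Some pairs of members kept a nearly constant ratio across the samples. Among 2346 pairs of the 69 members with a median of at least 10 reads, 5 pairs kept their ratio within a 1.5-fold range over the 27 samples. They were ATMG00170 with ATMG00620, whose ratio was 0.929 to 1, atp9 with ATMG00040, atp6-1 (ATMG00410) with ATMG01170, ATMG00330 with ATMG00780 and ATMG00020 with ATMG00030. Whether the members of a pair share reads was not tested.

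Many nuclear genes for the same complexes were at lower levels in −Fe−P. Of 40 nuclear subunits of the respiratory chain and ATP synthase, 4, 5 and 5 were below +Fe+P by the adjusted p in −Fe+P plants over the 3 times, and 6, 16 and 29 were in −Fe−P plants. The share of all genes lower by adjusted p was 2.45%, 3.57% and 9.43% for −Fe+P, and for −Fe−P it was 5.18%, 11.6% and 21.9%. Their median log2 fold change at 76 h was −0.07 for −Fe+P, while −Fe−P had −0.35, against the 0.59 and 0.52 of the mitochondrion-encoded members given above. The 4 with the largest decreases in −Fe+P were as follows. CYTC-2 (AT4G10040), a cytochrome c, at 76 h averaged 22.7 ± 1.55 TPM in −Fe+P plants, against 46.7 ± 2.33 TPM in +Fe+P plants (SD, n = 3 each), a log2 fold change of −1.03 (limma adjusted p = 8.42e-07). SDH2-1 (AT3G27380), an iron-sulfur subunit of succinate dehydrogenase, at 76 h averaged 17.7 ± 1.02 TPM in −Fe+P plants, against 27.4 ± 1.69 TPM in +Fe+P plants, a log2 fold change of −0.61. SDH2-2 (AT5G40650), its isoform, had −0.70 in −Fe+P plants and −0.98 in those of −Fe−P, and AT3G27240, of the cytochrome c1 family, had −0.86 and −0.98. These genes were chosen after their values were seen.

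Nuclear factors of mitochondrial transcription, splicing, editing and RNA decay differed between the iron-free media. Set against +Fe+P, 2, 11 and 9 of 21 such genes passed the adjusted p at a higher level in −Fe+P over the 3 times, against 3.43%, 28.5% and 29.5% of all genes, and none was lower. In −Fe−P, 1, 10 and 13 were lower than in +Fe+P, against 5.18%, 11.6% and 21.9% of all genes. In −Fe−P against −Fe+P, 4, 15 and 16 were lower by adjusted p (2.07%, 17.4% and 28.8% of all genes) and 0, 3 and 6 were called lower (0.074%, 0.994% and 4.87% of all genes). AT5G14580, a polyribonucleotide nucleotidyltransferase that degrades RNA, at 76 h averaged 1.91 ± 0.477 TPM in −Fe−P plants, against 9.32 ± 1.85 TPM in −Fe+P plants (SD, n = 3 each), a log2 fold change of −2.03 (standard error 0.18, limma adjusted p = 3.57e-09). PMH1 (AT3G22310), an RNA helicase, averaged 10.3 ± 0.778 TPM in −Fe−P plants and 32.4 ± 4.07 TPM in −Fe+P (−1.60), and MORF1 (AT4G20020), an RNA editing factor, averaged 11.3 ± 0.673 TPM in −Fe−P plants and 30.3 ± 4.39 TPM in −Fe+P (−1.38). The mitochondrion-encoded members had no call between the same media at 76 h. These 3 genes were likewise chosen after their values were seen.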

How the data were processed

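The authors sequenced poly(A)-selected shoot RNA and aligned reads to TAIR10 with HISAT2. Versions, the gene counter, the strand setting and the treatment of multiply matching reads are not given in the sources used here. The authors deposited one table of TPM, with 27 sample columns mapped by their labels and 0 other per-sample columns. Genes averaging 1 TPM or more (18910) were put on the log2(TPM + 0.5) scale, which understates changes of low genes. The model of limma 3.58.1 (R 4.3.3) had 1 mean for each of 9 groups, eBayes with a trend and no block. Benjamini-Hochberg adjustment ran over all genes within each of the 17 comparisons, and a call needed an adjusted p under 0.05 and at least 2-fold. The fit was tested on simulated data.

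Reads per sample were inferred from the TPM steps, within 0.02 reads of whole numbers. Names came from notes of chromosome 2 genes and the RefSeq genome (TAIR10.1). Values in every sample are given for the highest member of each role group, for called members with the largest change (at most 5 per direction and comparison) and for the member farthest from its mates. The members and lists were chosen with earlier results of these data known. The fit was repeated with a pseudocount of 0.1 or 1, without the filter, with a stricter filter of 5 TPM, with median-of-ratios and nuclear-only scaling, on the samples compared alone, with a replicate block and without each sample in turn. A fit without 3 −Fe−P samples was added after the data were seen.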

Additional observations from a re-analysis of the deposited data

Results flagged for a closer look

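For 2 members the response to −Fe−P differed between 39 and 76 h, as tested by the change of the log2 fold change over +Fe+P (76 h minus 39 h) in the same limma fit. These 2 of 75 were lower by adjusted p, as were 13.6% of all genes, and 0 members were higher, against 15.1% of all genes. For ATMG00490 the change was −1.45 (standard error 0.43, limma adjusted p = 0.0148), against 1.7% of all genes called lower in this contrast. It had 3.49, 1.55 and 1.56 TPM in −Fe−P and 0.714, 0.386 and 0.709 TPM in +Fe+P at 39 h, with no overlap. At 76 h it had 0.365, 1.02 and 1.31 TPM in −Fe−P and 1.32, 1.22 and 0.686 TPM in +Fe+P, with overlap. Its median was 11 reads per sample, and the adjusted p was 0.0509 without −Fe−P 39 h replicate 1 and 0.0515 without −Fe−P 76 h replicate 1.

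For ATMG00530 the change was −0.58 (standard error 0.21, limma adjusted p = 0.0399). It had 5.29, 3.73 and 4.51 TPM in −Fe−P and 3.07, 3.03 and 3.78 TPM in +Fe+P at 39 h, and 2.15, 3.10 and 2.97 TPM in −Fe−P and 3.55, 2.68 and 3.27 TPM in +Fe+P at 76 h. Groups overlapped at both times.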

How the results depend on the processing

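The number of members called depended on the settings in most comparisons with any call. For −Fe+P over +Fe+P at 76 h the 6 calls became 10 with pseudocount 0.1, 3 with pseudocount 1, 2 with a minimum mean of 5 TPM and 3 with median-of-ratios scaling, and nad3 and rps12 were called under each of the 8 settings run and in each of the 6 fits without 1 of the samples. For −Fe−P over +Fe+P at 39 h the 11 became 7 with a minimum mean of 5 TPM, 1 in a fit of only its samples and 0 without the −Fe−P sample of highest member sum at each time. At 76 h the 3 became 5 with pseudocount 0.1 and 1 with median-of-ratios scaling. For −Fe−P over −Fe+P at 52 h the 2 became 1 with pseudocount 1, 1 with a minimum mean of 5 TPM, 1 with the replicate block, and 0 with no filter, in a fit of only its samples or without those 3 samples. For 52 over 39 h, the 1 call in +Fe+P became 0 with a minimum mean of 5 TPM and in a fit of only its samples, and the 2 in −Fe−P became 0 with no filter, in a fit of only its samples and without those 3 samples. For the change of response between 39 and 76 h, −Fe+P had 0 calls and 1 in a fit of only its samples, and −Fe−P had 1, and 0 with a minimum mean of 5 TPM and 2 in a fit of only its samples. A minimum of 5 TPM leaves fewer members to test, and a fit of only its samples has fewer samples for the spread. For the others the cause was not tested.

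Without 1 of the samples, calls ranged from 0 to 19 for −Fe−P over +Fe+P at 39 h, 0 to 1 at 52 h and 2 to 10 at 76 h. They ranged from 3 to 9 for −Fe+P over +Fe+P at 76 h. For −Fe−P over −Fe+P they ranged from 0 to 3, 0 to 2 and 0 to 2 over the 3 times. For 52 over 39 h they ranged from 0 to 1 in +Fe+P and from 0 to 5 in −Fe−P, and for the change of the −Fe−P response from 0 to 4. In the 7 other comparisons they were 0 throughout.

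Median-of-ratios scaling moved the median of all genes by more than 0.1 in some comparisons. Relative to it the member medians were 0.02 (52 h) and 0.47 (76 h) for −Fe+P, and 0.40 (39 h), 0.13 (52 h) and 0.41 (76 h) for −Fe−P, against +Fe+P. Replicate numbers showed no clear pairing of the samples. Same-numbered samples had correlations of deviations of −0.42 to 0.36 (median 0.05, with 8 of 27 above 0.1). Differently numbered ones had −0.42 to 0.39 (median −0.02, with 13 of 54 above 0.1). Deviations from a mean of 3 samples constrain each other, so these correlations cannot exclude a pairing. The replicate block changed no other count of calls beyond 1.5-fold. Members with few reads, such as ATMG00250 and ATMG00665, limit what the depth can show.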
